A study of Mus musculus with 8 samples.

Results

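The 36 cell division genes described here, 36 of the 44674 genes in the deposited tables, were measured by mRNA sequencing of brown adipose tissue (BAT). They were taken by symbol from a fixed list, matched through the GENCODE annotation of GRCm38, and all 36 were found and had enough counts to be tested. They were described in 2 groups, 24 genes of mitosis and 12 genes of DNA replication. The Ox1RΔSERT mice (n = 4) carried floxed alleles of the orexin receptor Ox1R together with Sert-Cre, a transgene that follows the promoter of the serotonin transporter Slc6a4 and removes part of Ox1R in serotonergic neurons. The controls (n = 4) had the same floxed alleles without Sert-Cre and came from the same breeding. All 8 mice were males of the C57BL/6N strain that received a high-fat diet (HFD) from 4 to 18 weeks of age, and the tissue was collected between 14 and 16 h, when a hyperinsulinemic-euglycemic clamp (insulin infused, blood glucose held steady) had ended. In reporter mice of the study, Sert-Cre was also active in some cortical and thalamic cells, and its activity in BAT was not analysed here. Control mice are given below in the order 10684, 11253, 11560 and 11563, and Ox1RΔSERT mice in the order 11243, 11601, 11613 and 11708.

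A cell that divides copies its DNA in S phase and parts the copies in mitosis. Replication genes are transcribed before and during S phase, largely by E2F factors, and encode the MCM helicase, the sliding clamp and the enzymes that supply nucleotides. Mitosis genes are transcribed later, in G2 and mitosis, and encode cyclins, kinases, motors and checkpoint proteins, most of which disappear as a cell leaves the cycle. Brown adipocytes that have matured divide little, so in bulk tissue such transcripts are scarce. Macrophages, preadipocytes and endothelial cells of adipose tissue can divide.

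Total counts were 35852708 to 50063339 per mouse, so that 3 counts, the limit of detection used here, corresponded to 0.0592 to 0.0951 on the scale of normalized values (CPM, counts scaled by library size and TMM factor). Hcrtr1, the gene of Ox1R, had 0 to 5 counts in control and 0 to 5 in Ox1RΔSERT mice and cannot check the genotype in this tissue. Markers of the labelled tissue were present, since brown adipocyte genes such as Ucp1 and Cidea summed to 9122 to 15344 CPM. Ox1RΔSERT mice 11601 and 11708 stood apart on the first principal component, at 61.6 and 80.5 against -47.5 to 8.62 in the other 6 mice. Skeletal muscle genes were high in control mouse 11253 and Ox1RΔSERT mouse 11708, with summed values of 1378 and 1993 CPM against 2.31 to 157 in the other mice. No pair of mice of a genotype agreed within sampling noise.

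Promoter sequences are shown first because mitosis and replication genes differ in the short motifs in front of them. RefSeq windows of 300 bases, 250 before to 50 after the start on GRCm38.p6, were at hand for 31 of the 36 genes, 20 of mitosis and 11 of replication. The motifs searched on both strands were TTTGAA, the core of the cell cycle genes homology region (CHR) that mitosis genes are known for, the CCAAT box, and the 4 E2F forms TTTCCCGC, TTTCGCGC, TTTGCCGC and TTTGGCGC. In the windows below, 5′ to 3′ along the gene's strand, capitals mark every match. Ccnb2 (chr9:70421505-70421804, minus strand), Cdk1 (chr10:69352863-69353162, minus strand) and Mki67 (chr7:135716330-135716629, minus strand) stand for mitosis genes with 2 CHR cores each, and Mcm6 (chr1:128359656-128359955, minus strand) and Rrm1 (chr7:102441445-102441744, plus strand) for replication genes without one.
Ccnb2: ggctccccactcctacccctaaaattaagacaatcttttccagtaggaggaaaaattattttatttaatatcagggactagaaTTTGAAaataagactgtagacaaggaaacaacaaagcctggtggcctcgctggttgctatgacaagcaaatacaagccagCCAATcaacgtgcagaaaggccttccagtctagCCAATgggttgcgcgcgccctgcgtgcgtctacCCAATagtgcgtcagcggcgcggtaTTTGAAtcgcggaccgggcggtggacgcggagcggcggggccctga
Cdk1: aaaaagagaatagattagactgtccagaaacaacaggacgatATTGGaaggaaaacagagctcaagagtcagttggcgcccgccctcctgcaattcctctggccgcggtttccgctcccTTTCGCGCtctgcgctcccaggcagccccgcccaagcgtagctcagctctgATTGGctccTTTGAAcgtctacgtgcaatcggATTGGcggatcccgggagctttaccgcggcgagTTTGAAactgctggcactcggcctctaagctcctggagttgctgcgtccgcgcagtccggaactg
Mki67: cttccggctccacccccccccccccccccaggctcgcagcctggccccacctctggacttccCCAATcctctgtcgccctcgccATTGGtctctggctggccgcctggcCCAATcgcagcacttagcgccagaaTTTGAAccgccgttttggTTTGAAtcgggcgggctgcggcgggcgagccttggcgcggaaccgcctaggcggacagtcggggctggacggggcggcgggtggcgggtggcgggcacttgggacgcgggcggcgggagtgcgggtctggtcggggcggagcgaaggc
Mcm6: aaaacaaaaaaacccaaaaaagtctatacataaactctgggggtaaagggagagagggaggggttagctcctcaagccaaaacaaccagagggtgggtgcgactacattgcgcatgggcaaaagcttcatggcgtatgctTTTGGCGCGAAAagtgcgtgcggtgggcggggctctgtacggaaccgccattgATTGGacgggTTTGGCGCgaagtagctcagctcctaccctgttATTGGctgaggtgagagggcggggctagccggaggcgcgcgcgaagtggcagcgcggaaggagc
Rrm1: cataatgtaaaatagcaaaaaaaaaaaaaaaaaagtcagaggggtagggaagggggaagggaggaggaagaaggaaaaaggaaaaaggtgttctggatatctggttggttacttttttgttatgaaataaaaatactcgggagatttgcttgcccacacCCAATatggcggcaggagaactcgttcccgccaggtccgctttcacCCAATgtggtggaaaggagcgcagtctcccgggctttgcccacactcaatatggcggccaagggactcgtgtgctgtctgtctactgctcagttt

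The CHR core was present in 16 of 21 mitosis windows (76.2%) and in 1 of 12 replication windows (8.33%), that of Mcm2. It was in 17.9% of all 32851 windows and in 12.1% of the windows of tested genes. A CCAAT box was found in 90.5% of mitosis and 75.0% of replication windows, against 37.4% of all windows. An E2F form was found in 14.3% of mitosis and 33.3% of replication windows, against 2.26% of all. Mcm6 held 3 E2F matches, of which the first pair overlaps on opposite strands, and Cdk1 held 1. Prc1 and Mcm7 have more than 1 window each, and those of Prc1 overlap. Rrm1 held CCAAT boxes alone. These matches describe the windows and do not show that a factor was bound.

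In BAT, mitosis genes were present at very low levels, and their summed normalized value was 87.7 and 74.4 CPM in Ox1RΔSERT mice 11601 and 11708 against 17.9 to 34.2 CPM in the other 6 mice. Mice 11243 and 11613, of the same genotype, had 24.5 and 23.0 CPM, inside the range of the controls. The 24 mitosis genes had a median log2 fold change of 1.36 between genotypes, the 12 replication genes one of 0.62 and all 14489 tested genes one of 0.0021. edgeR's quasi-likelihood test called 0 of the 36 genes at an adjusted p under 0.05, with adjusted p of 0.316 to 0.964, as it called 0 of all tested genes (0%). At an unadjusted p under 0.05, 16 of the 36 genes were higher, 11 of 24 mitosis and 5 of 12 replication genes, where 10.2% of all genes were, and 0 were lower. DESeq2 called 0 of the 36, with a lowest adjusted p of 0.0671, where 1.54% of all genes were called higher. Normalized values did not overlap between the genotypes in 2 of the 36, Bub1b and Mcm3, both higher in Ox1RΔSERT mice, where 2.69% of all genes behaved so. In TPM, both genes overlapped. Each of the 24 mitosis genes and 10 of 12 replication genes had a positive fold change, while with library size scaling, which moved the median of all genes by 0.22, it was 24 of 24 and 12 of 12, and with log2(TPM + 1) 23 of 24 and 12 of 12. Under library size scaling, 20 mitosis and 5 replication genes were higher at an unadjusted p under 0.05, where 20.8% of all genes were. The highest 2 normalized values belonged to mice 11601 and 11708 in 22 of 24 mitosis genes and 10 of 12 replication genes. That is 88.9% of the 36 genes, against 20.1% of all tested genes. In bulk samples, a larger number of dividing cells and more RNA per dividing cell cannot be told apart. The counts at an unadjusted p under 0.05 moved when single mice were left out. For mitosis genes the count of 11 was 1 without mouse 10684, 11601 or 11708, 2 without 11560, 3 without 11563, 14 without 11253, 19 without 11243 and 22 without 11613. For replication genes the count of 5 was 2 without mouse 11560, 11563, 11601 or 11708, 4 without 10684 or 11253 and 5 without 11243 or 11613. The share of all genes higher at this p moved as well, from 4.84% without mouse 11560 to 13.9% without mouse 11243. It was 9.15% without 10684, 9.5% without 11253, 6.37% without 11563, 5.07% without 11601, 13.1% without 11613 and 4.93% without 11708.

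**Figure D1:**
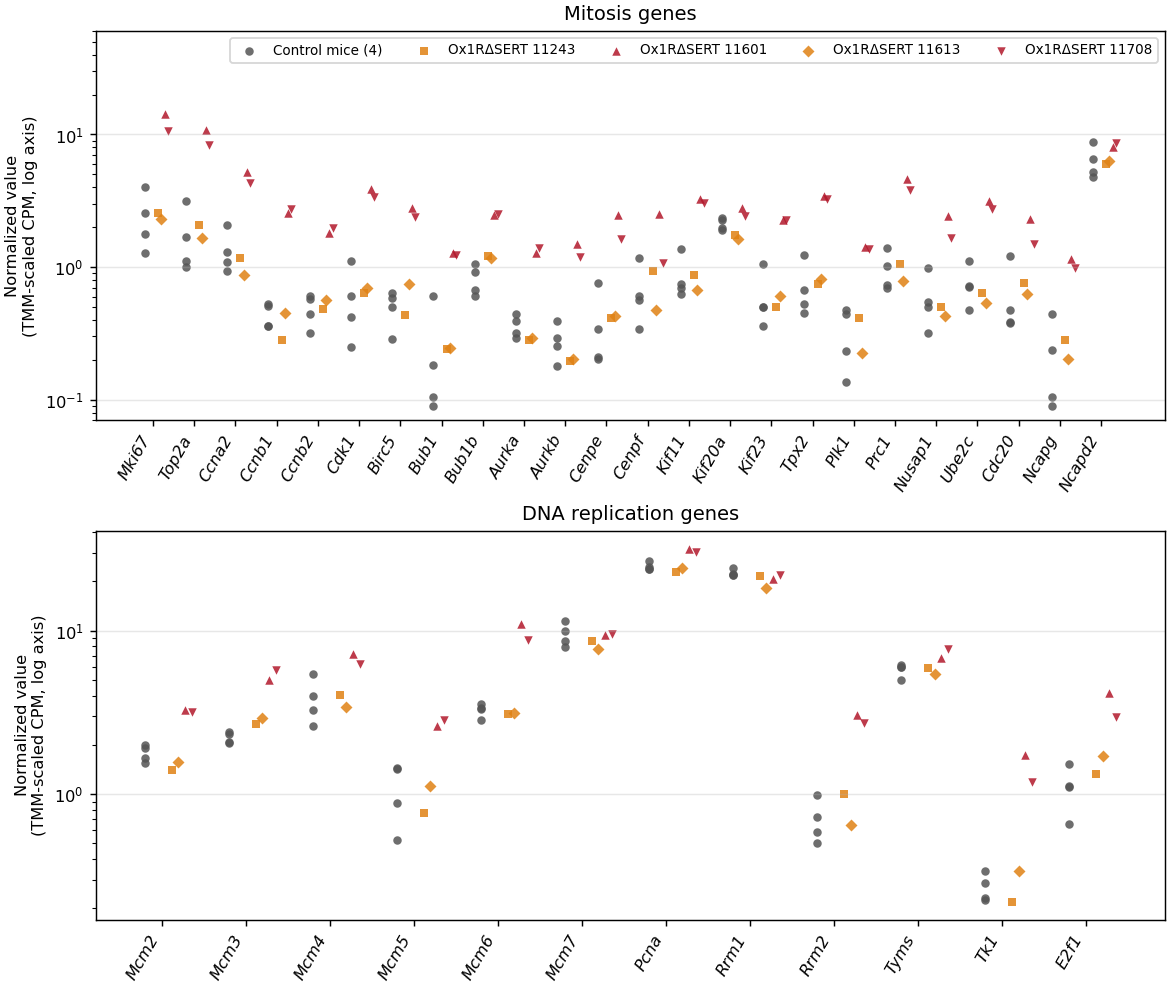
Normalized value (TMM-scaled CPM, log axis) of each mitosis gene (top) and each DNA replication gene (bottom), 1 point per mouse, with the 4 control mice as circles and each Ox1RΔSERT mouse by its own symbol. Mice 11601 and 11708 lie above the other 6 mice in 22 of 24 mitosis and 10 of 12 replication genes.

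Mki67 encodes Ki-67, the coat protein of mitotic chromosomes and the common label of cycling cells. Its normalized values were 2.54, 4.03, 1.29 and 1.79 in control mice and 2.55, 14.4, 2.29 and 10.6 in Ox1RΔSERT mice. Mice 11601 and 11708 were high and the other 2 Ox1RΔSERT mice lay within the control range. The log2 fold change was 1.63 ± 0.64 (SE, n = 4 and 4) with an edgeR adjusted p of 0.316. Mki67 lies on chr7:135689784-135716361 (minus strand, GRCm38). Top2a, the topoisomerase that untangles sister DNA, had 1.7, 3.14, 1.11 and 1.01 in control and 2.07, 10.8, 1.66 and 8.37 in Ox1RΔSERT mice. The order of the mice was alike, and the log2 fold change was 1.73 ± 0.66 (edgeR adjusted p = 0.316).

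Among the cyclins and their kinase, Cdk1, the kinase that drives entry into mitosis, had the highest log2 fold change of the 36 genes, 1.87 ± 0.71. Its values were 0.602, 1.11, 0.248 and 0.4204 in control and 0.633, 3.89, 0.696 and 3.37 in Ox1RΔSERT mice, with overlap between the groups because mice 11243 and 11613 lay inside the control range. Cyclin B1, encoded by Ccnb1, is the partner of CDK1, and its values were 0.523, 0.507, 0.361 and 0.357 against 0.284, 2.54, 0.449 and 2.76. Its second partner gene, Ccnb2, showed 0.445, 0.571, 0.316 and 0.6095 against 0.4804, 1.79, 0.561 and 1.97. Ccna2, cyclin A2, which acts in S phase and G2, showed 0.942, 2.09, 1.31 and 1.09 against 1.18, 5.21, 0.876 and 4.28. In each of these 3 cyclin genes mice 11601 and 11708 were the highest and the log2 fold changes were 1.79 ± 0.71, 1.31 ± 0.51 and 1.09 ± 0.58. Ccna2 shares 510 exon bases with Exosc9 on the opposite strand, and whether the counting used strand is not given in the sources used here, so its level is uncertain to that extent.

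The spindle checkpoint and the chromosomal passenger proteins hold back the parting of chromosomes until each is attached. Bub1b, which encodes the checkpoint protein BUBR1, was the 1 mitosis gene without overlap, with 1.05, 0.919, 0.6097 and 0.673 in control and 1.22, 2.47, 1.17 and 2.51 in Ox1RΔSERT mice. The lowest Ox1RΔSERT value lay only slightly above the highest control value, while 11601 and 11708 were about equal to each other. In TPM the groups overlapped, at 0.252 in control mouse 10684 against 0.227 in Ox1RΔSERT mouse 11243. The log2 fold change was 1.18 ± 0.34 with an unadjusted edgeR p of 0.00701, an adjusted p of 0.316 and a DESeq2 adjusted p of 0.0671. The exact two-sided permutation p was 0.0286, the smallest that 70 assignments of 4 mice against 4 allow. Any gene without overlap has this permutation p, so it adds nothing to the lack of overlap. Bub1, the kinase of the same checkpoint, had 0.183, 0.602, 0.0903 and 0.105 against 0.2402, 1.28, 0.247 and 1.23, and in controls 11560 and 11563 it had only 4 and 5 counts. Birc5, survivin, had 0.288, 0.634, 0.497 and 0.589 against 0.437, 2.801, 0.741 and 2.41 and a log2 fold change of 1.67 ± 0.59. Both genes were highest in mice 11601 and 11708. Aurkb, the passenger kinase aurora B, had 0.181 to 0.392 in control mice, 0.197 to 0.202 in mice 11243 and 11613 and 1.499 and 1.19 in mice 11601 and 11708. Aurora A, encoded by Aurka and found at the spindle poles, had 0.294 to 0.444, 0.284 to 0.292 and 1.28 and 1.399 in the same order. Plk1, a kinase of mitotic entry and exit, had 0.135 to 0.471, 0.225 to 0.415 and 1.42 and 1.38. In these 3 kinase genes mice 11601 and 11708 stood above all other mice, and the log2 fold changes were 1.46 ± 0.69, 1.18 ± 0.57 and 1.44 ± 0.65.

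Motors and kinetochore proteins varied among themselves. Cenpe, a kinesin of the kinetochore, had values of 0.34, 0.761, 0.203 and 0.2102 in control and 0.415, 2.47, 0.427 and 1.62 in Ox1RΔSERT mice and a log2 fold change of 1.74 ± 0.69. Cenpf, which binds the kinetochore, was an exception to the order of mice, with 0.34, 1.17, 0.6097 and 0.567 against 0.939, 2.51, 0.471 and 1.07. Mouse 11601 was high there, but mouse 11708 lay below control mouse 11253. Kif11, the kinesin that pushes the spindle poles apart, had 0.628, 1.36, 0.745 and 0.694 against 0.873, 3.25, 0.674 and 3.06. Kif23, a kinesin of the dividing cell's midzone, had 0.361 to 1.05 in control mice, 0.502 to 0.606 in mice 11243 and 11613 and 2.25 and 2.26 in mice 11601 and 11708. Kif20a, another midzone kinesin, stood out by not following the others on the normalized scale. Its values were 1.96, 2.25, 1.92 and 2.33 against 1.75, 2.78, 1.64 and 2.45, with a log2 fold change of 0.03 ± 0.22 (edgeR adjusted p = 0.964). Its highest values were still those of mice 11601 and 11708, but by little on that scale. In TPM these mice had 0.794 and 0.673 for Kif20a, against 0.341 to 0.489 in the other mice. Kif20a shares 1271 of its 4338 exon bases with Cdc23 on the opposite strand. Whether reads of Cdc23 entered its count was not tested.

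Tpx2, which builds spindle microtubules, had 0.523, 1.24, 0.452 and 0.673 in control and 0.742, 3.41, 0.808 and 3.25 in Ox1RΔSERT mice, and a log2 fold change of 1.52 ± 0.59. Prc1 bundles the microtubules of the midzone and had 1.02, 1.395, 0.70 and 0.736 against 1.05, 4.62, 0.786 and 3.78, a log2 fold change of 1.42 ± 0.58. For Nusap1, a spindle protein, control mice had 0.316 to 0.983, mice 11243 and 11613 had 0.427 to 0.502 and mice 11601 and 11708 had 2.43 and 1.65. These 3 genes share the pattern of Mki67. Prc1 shares 911 exon bases with Rccd1 and Nusap1 shares 172 with Oip5, both on the opposite strand.

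The anaphase-promoting complex ends mitosis by marking cyclins for destruction, and it works with Ube2c, a ubiquitin-conjugating enzyme, and Cdc20, its activator. Ube2c had 0.706, 1.11, 0.474 and 0.715 in control and 0.633, 3.16, 0.539 and 2.76 in Ox1RΔSERT mice, with a log2 fold change of 1.25 ± 0.60. It shares 592 exon bases with Tnnc2, a troponin gene of fast muscle on the opposite strand, and the muscle genes summed to 1378 and 1993 CPM in mice 11253 and 11708, to 157 CPM in mouse 11601 and to 2.31 to 36.7 CPM in the other 5. Their part in the Ube2c count was not tested. Cdc20 had 0.471, 1.205, 0.384 and 0.378 against 0.764, 2.29, 0.629 and 1.48. Control mouse 11253 was well above the other controls for this gene, and the log2 fold change was 1.10 ± 0.53.

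The condensin genes differed from each other. Ncapg, a subunit of condensin I, had 0.235, 0.444, 0.0903 and 0.105 in control and 0.284, 1.14, 0.202 and 0.987 in Ox1RΔSERT mice and a log2 fold change of 1.63 ± 0.70, from values near the limit of detection. Ncapd2, another subunit of the same complex, was more abundant per length, at 1.66 ± 0.516 TPM in control mice against 0.0474 ± 0.0318 TPM for Ncapg (mean ± SD, n = 4). Its normalized values were 8.71, 6.53, 5.17 and 4.79 against 6.03, 8.05, 6.35 and 8.58. On that scale control mouse 10684 had the highest value of all, and the log2 fold change was 0.20 ± 0.22. In TPM, mice 11601 and 11708 were highest for Ncapd2, at 2.85 and 2.80 against 0.964 to 2.35 in the other mice. Ncapg shares 944 exon bases with Lcorl on the opposite strand, and Ncapd2 shares 237 with Scarna10 on the same strand. Shorter overlaps were found for Plk1 with Gm44985 (156 bases), Top2a with Gm23451 (122), Tk1 with Afmid (83) and Cdc20 with Elovl1 (53).

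DNA replication genes were more abundant than mitosis genes in control BAT and had a lower median log2 fold change, 0.62 against 1.36, a difference that was not tested. On the TPM scale, which accounts for transcript length, the median control level was 0.667 for the 12 replication genes and 0.175 for the 24 mitosis genes. The 5 genes with a mean control level of 1 TPM or more, Pcna, Rrm1, Mcm7, Tyms and Ncapd2, had log2 fold changes of -0.13 to 0.20, while the other 31 had 0.03 to 1.87. Over the 36 genes, control level and log2 fold change had a Spearman rho of -0.596 and, with log2 TPM, a Pearson r of -0.747. This correlation is across genes, which are not independent replicates and share the libraries of the same mice, and the control values enter both axes.

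**Figure D2:**
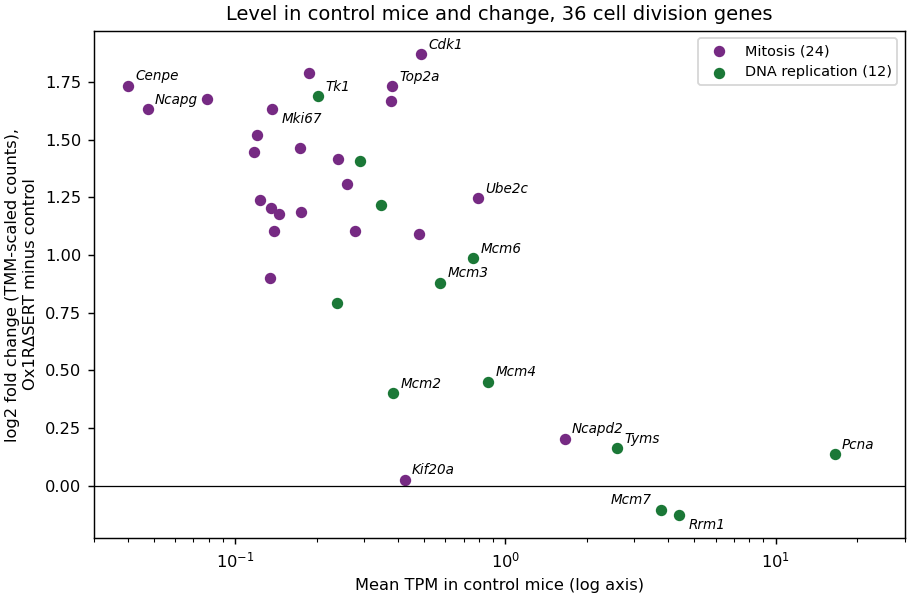
Mean TPM in the 4 control mice (x axis, log scale) and log2 fold change of Ox1RΔSERT minus control (y axis, TMM-scaled counts) for the 24 mitosis and 12 DNA replication genes, 1 point per gene. The 5 genes at 1 TPM or more lie between -0.13 and 0.20, and all genes above 1.00 on the y axis lie below 1 TPM.

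The MCM2 to MCM7 proteins form the helicase ring that opens DNA. Values of their genes differed. Mcm6 had 3.35, 3.55, 3.32 and 2.84 in control and 3.08, 10.9, 3.12 and 8.72 in Ox1RΔSERT mice, with mice 11601 and 11708 far above and the other 6 mice between 2.84 and 3.55. Its log2 fold change was 0.99 ± 0.42 with an edgeR adjusted p of 0.324. Mcm3 was the 1 replication gene without overlap, at 2.07, 2.09, 2.39 and 2.33 against 2.69, 4.99, 2.92 and 5.78. All 4 Ox1RΔSERT mice were above the highest control, with a log2 fold change of 0.88 ± 0.27, an edgeR adjusted p of 0.316 and a DESeq2 adjusted p of 0.0782. The exact two-sided permutation p of 0.0286 follows from the lack of overlap. In TPM the groups overlapped for Mcm3, at 0.800 in control mouse 11560 against 0.615 in Ox1RΔSERT mouse 11243. Mcm5 had 1.44, 1.43, 0.881 and 0.525 against 0.764, 2.62, 1.12 and 2.84, a wide spread among controls.

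Mcm2 had 1.91, 1.55, 1.99 and 1.66 against 1.397, 3.25, 1.57 and 3.17 and a log2 fold change of 0.40 ± 0.31. Mcm4 had 5.41, 3.96, 3.27 and 2.63 against 4.04, 7.199, 3.39 and 6.23, where control mouse 10684 came close to mouse 11708. Both genes were highest in mice 11601 and 11708. Mcm7, on the TPM scale the most abundant of the 6, had 11.4, 9.89, 8.65 and 7.903 against 8.603, 9.37, 7.68 and 9.56 and a log2 fold change of -0.10 ± 0.14. On the normalized scale the highest values were those of control mice 10684 and 11253, unlike in the other subunits. In TPM, mice 11601 and 11708 were highest for Mcm7 as well, at 5.41 and 5.21 against 3.23 to 4.36 in the other mice. Its fold change was positive, 0.12, with library size scaling. Mcm7 shares 321 exon bases with Ap4m1 on the opposite strand.

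Pcna, the sliding clamp that holds polymerases on DNA and also serves in repair, was the most abundant of the 36 genes, at 16.5 ± 0.342 TPM in control and 23.8 ± 7.38 TPM in Ox1RΔSERT mice (mean ± SD, n = 4). Its normalized values were 23.7, 26.7, 24.5 and 23.9 against 22.7, 31.7, 24.2 and 30.1, highest in mice 11601 and 11708 but by a small margin, and the log2 fold change was 0.14 ± 0.12. Named pseudogenes exist for Pcna, Tyms, Ccnb1 and Ccnb2, and reads could be split between them and the genes.

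Among the enzymes that supply deoxynucleotides, the subunits of ribonucleotide reductase differed from each other. Rrm2, the subunit made in S phase, had 0.994, 0.729, 0.587 and 0.504 in control and 1.004, 3.06, 0.651 and 2.74 in Ox1RΔSERT mice, a log2 fold change of 1.41 ± 0.51 (edgeR adjusted p = 0.316). Rrm1, the large subunit, had 21.8, 22.2, 23.96 and 21.7 against 21.5, 20.6, 18.1 and 21.9. No mouse was high for Rrm1 on the normalized scale, and its log2 fold change was -0.13 ± 0.09, or 0.0903 with library size scaling. In TPM, mice 11601 and 11708 were highest for Rrm1, at 5.83 and 5.97 against 3.95 to 4.70 in the other mice. Tk1, the thymidine kinase of S phase, had 0.34, 0.285, 0.226 and 0.231 against 0.218, 1.74, 0.337 and 1.19 and the largest log2 fold change of the replication genes, 1.69 ± 0.63. Thymidylate synthase, encoded by Tyms, had 5.99, 4.98, 6.03 and 6.12 against 5.94, 6.82, 5.43 and 7.67. Again mice 11601 and 11708 were highest, though the log2 fold change was 0.16 ± 0.15. E2f1, the transcription factor upstream of many replication genes, had 1.098, 1.52, 0.655 and 1.11 against 1.33, 4.16, 1.71 and 2.96 and a log2 fold change of 1.22 ± 0.40 (edgeR adjusted p = 0.316). For Rrm2, Tk1 and E2f1 the values of mice 11601 and 11708 were at least 1.74 times those of every other mouse, and without these mice the log2 fold changes were 0.25 ± 0.37, 0.05 ± 0.40 and 0.48 ± 0.34.

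**Figure D3:**
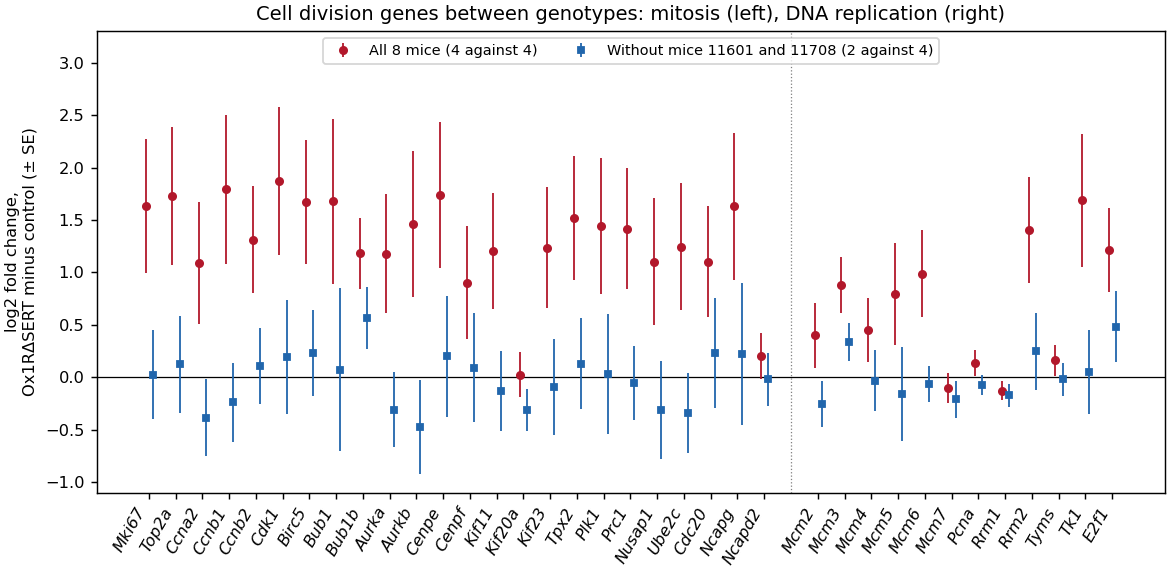
The log2 fold change of each gene, Ox1RΔSERT minus control, with its standard error, for all 8 mice (circles, 4 against 4) and without mice 11601 and 11708 (squares, 2 against 4), mitosis genes on the left and DNA replication genes on the right of the dotted line. The circles of mitosis genes have a median of 1.36 and the squares one of 0.03.

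With mice 11601 and 11708 left out, the median log2 fold change of the mitosis genes was 0.03, with 13 positive and 11 negative values, and that of the replication genes -0.05. Mki67 then had 0.03 ± 0.42, Cdk1 0.19 ± 0.55 and Mcm6 -0.07 ± 0.17. For Bub1b the value went from 1.18 ± 0.34 to 0.57 ± 0.30, and for Mcm3 from 0.88 ± 0.27 to 0.34 ± 0.18. None of the 36 genes reached an unadjusted p under 0.05 in that edgeR fit of 2 against 4 mice. In 18 of 24 mitosis genes and 4 of 12 replication genes both mice 11243 and 11613 lay within the range of the controls. Among the control mice, 11253 had the highest value in 17 of 24 mitosis genes and 11560 the lowest in 15. The shares of all tested genes with such ranges or ranks were not computed, so these counts cannot be called high or low.

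The macrophage genes varied over the mice in an order close to that of the mitosis genes. Adgre1, which encodes the macrophage surface protein F4/80, had 6.64, 13.7, 4.22 and 6.35 in control and 7.97, 50.9, 10.1 and 40.2 in Ox1RΔSERT mice. For Trem2, a lipid receptor of macrophages, the values were 0.811, 1.997, 0.745 and 1.303 against 1.53, 16.1, 2.54 and 14.3. Mice 11601 and 11708 were highest for both, and for 18 of the 20 macrophage genes on the list, where 20.1% of all tested genes had these mice highest. The log2 fold changes were 1.82 ± 0.64 for Adgre1, 2.83 ± 0.77 for Trem2, 1.70 ± 0.60 for Cd68, 1.09 ± 0.47 for Csf1r, the receptor of the growth factor CSF1, and 1.43 ± 0.43 for Mrc1, the mannose receptor. Chosen after their values were seen, Cd163 and Timd4 were the listed genes without mice 11601 and 11708 highest. Cd163 had a log2 fold change of -0.37 ± 0.27. Timd4 was too low for the edgeR test, at means of 0.228 CPM in control and 0.224 CPM in Ox1RΔSERT mice. Mertk, chosen likewise, had a log2 fold change of 0.30 ± 0.20. edgeR called 0 of the 19 tested macrophage genes at an adjusted p under 0.05, while DESeq2 called 8 of 20 higher, Mrc1 and Trem2 among them, where 1.54% of all genes were.

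Summed over 20 macrophage genes, the normalized values were 308, 436, 205 and 255 CPM in control and 308, 1413, 359 and 1153 CPM in Ox1RΔSERT mice. Lyz2, chosen after its values were seen, was the largest single part of this sum. It had 83.3 CPM in control mouse 10684, 506 CPM in mouse 11601 and 348 CPM in mouse 11708. The macrophage sum without Lyz2 was not computed. The 24 mitosis genes summed to 25.5, 34.2, 17.9 and 19.7 CPM against 24.5, 87.7, 23.0 and 74.4 CPM. Mouse 11560 was the lowest and mouse 11601 the highest of the 8 in both sums, followed downwards by 11708 and then 11253. The 12 replication genes summed to 79.5, 78.9, 76.5 and 71.5 CPM against 73.2, 106.5, 70.3 and 102.8 CPM. The same mice were highest there too, but the other 6 mice spanned only 70.3 to 79.5 CPM. Pcna and Rrm1 make up most of the replication sum, and without them it was 54.2 and 50.9 CPM in mice 11601 and 11708 against 25.9 to 34.0 CPM in the others.

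The ratio of the mitosis sum to the macrophage sum changed less over the mice than either sum. Per 1000 macrophage CPM, mitosis genes had 82.8, 78.5, 87.4 and 77.2 CPM in control and 79.4, 62.1, 63.9 and 64.5 CPM in Ox1RΔSERT mice. The highest was 1.41 times the lowest, against 4.91 times for the mitosis sum and 6.91 times for the macrophage sum. Mice 11601, 11613 and 11708 lay below all controls in this ratio. Per 1000 macrophage TPM, mitosis genes had 43.8, 43.5, 49.2 and 43.0 TPM in control and 40.5, 33.7, 38.1 and 37.8 TPM in Ox1RΔSERT mice. On that scale every Ox1RΔSERT mouse, 11243 included, lay below all controls. Ncapd2 and Kif20a, which did not follow the other mitosis genes on the normalized scale, weigh unevenly in the CPM ratio. They made up 8.71 and 1.96 CPM of a mitosis sum of 25.5 in control mouse 10684, and 8.05 and 2.78 CPM of 87.7 in mouse 11601. The ratio without these genes was not computed, so the order of the mice in it may depend on them. The replication sum per 1000 macrophage CPM ranged from 75.4 to 374, a 4.96-fold span.

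**Figure D4:**
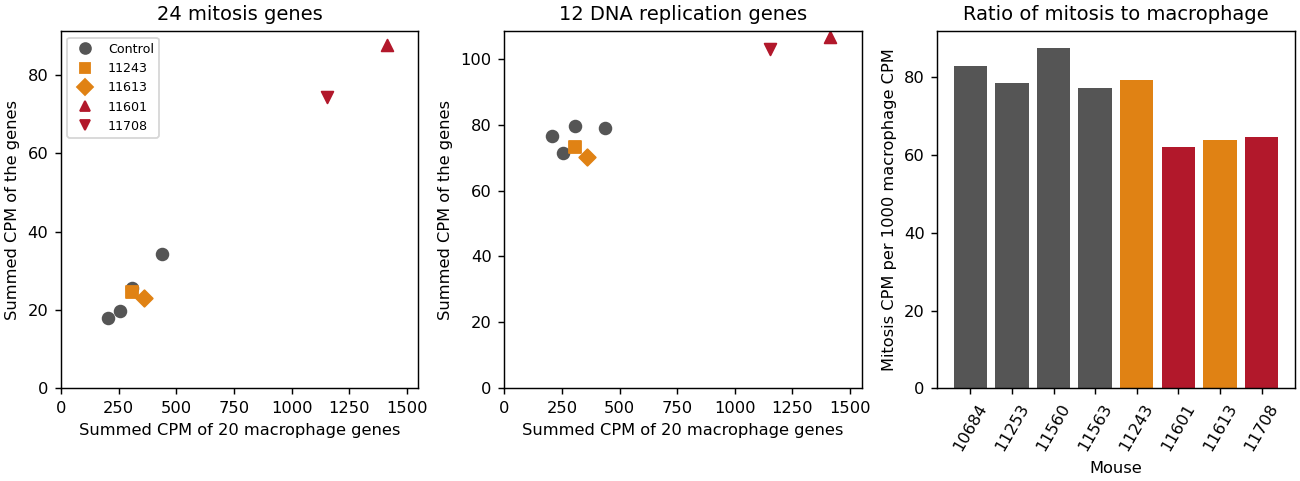
Summed normalized CPM of the 24 mitosis genes (left) and of the 12 DNA replication genes (middle) against that of 20 macrophage genes, 1 point per mouse, and the mitosis sum per 1000 macrophage CPM as bars from 0 (right), controls in grey and Ox1RΔSERT mice in colour. Mice 11601 and 11708 lie apart at 1413 and 1153 macrophage CPM, and the ratio spans 62.1 to 87.4.

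Because mice 11601 and 11708 formed a cluster of their own on the macrophage genes, no correlation over all 8 mice is given. Over the other 6 mice, 4 control and 2 Ox1RΔSERT, the macrophage sum and the mitosis sum had a Pearson r of 0.917 and a Spearman rho of 0.771, and the replication sum had 0.191 and -0.0286. These are descriptions over 6 mice whose values share library and scaling. Without mice 11253 and 11560, the 2 farthest from the median macrophage sum, the Pearson r of the mitosis sum was 0.541 over 4 mice with a Spearman rho of 0.2, so that the relation rests largely on those 2 mice. Among single genes over the 6 mice, Cdk1 had a Pearson r of 0.986, Cenpe 0.949 and Mki67 0.936, while Kif20a had 0.0432. Of the mitosis genes 20 of 24 had an r above 0.5, and of the replication genes 4 of 12. The share of all tested genes above 0.5 was not computed, so these counts cannot be called high or low. The genes share the same mice and are not independent. Tyms had -0.906 and Mcm2 -0.578, and E2f1 had 0.855.

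Other cell types also varied with the mitosis genes. The 6 markers of preadipocytes and fibroblasts, such as Pdgfra and Dcn, summed to 808 and 397 CPM in mice 11601 and 11708 and to 145 to 273 CPM in the others. All 6 were highest in mice 11601 and 11708. The brown adipocyte markers were lowest in the same mice on the normalized scale, at 9941 and 9122 CPM against 12827 to 15344 CPM. In TPM they summed to 16343 and 14128 in these mice against 15317 to 18167, so that only mouse 11708 was below the others. Endothelial markers summed to 246 and 326 CPM against 264 to 359 CPM, so that mouse 11601 was the lowest of all and mouse 11708 lay inside the range of the others. In TPM this order did not hold, with endothelial sums of 71.4 and 87.5 in mice 11601 and 11708 against 54.3 to 72.2 in the others. Neutrophil markers summed to 19.5 and 39.98 CPM against 4.65 to 24.4 CPM. T cell markers were near the limit of detection, with a summed value over 7 genes of 2.07 and 1.73 CPM in mice 11601 and 11708 and 0.483 to 1.30 CPM in the others, highest again in those mice, and of the 7 genes 4 were at 0 in at least 1 mouse, while B cell markers summed to 0.355 and 0.535 CPM against 0.158 to 0.883 CPM over 4 genes. The part of each cell type in the mitosis values was not tested.

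Other genes of the cell cycle were taken from 3 longer lists. Of 43 tested further mitosis genes, 18 were higher at an unadjusted p under 0.05, where 10.2% of all genes were, and 0 were lower, with a median log2 fold change of 1.00. The highest 2 values were those of mice 11601 and 11708 in 39 of them, against 20.1% of all tested genes. Foxm1, the transcription factor of G2 and mitosis genes, had 0.628, 1.01, 0.858 and 0.546 in control and 0.895, 2.62, 0.786 and 2.84 in Ox1RΔSERT mice, a log2 fold change of 1.23 ± 0.47. Mybl2, which acts with it in the same programme, had 0.575, 0.824, 0.723 and 0.778 against 0.699, 1.16, 0.988 and 1.09 and a log2 fold change of 0.44 ± 0.24. Chosen after their values were seen, the kinetochore genes Spc25 and Cenpa were called higher by DESeq2 with adjusted p of 0.0466 and 0.0109. Spc25 had 0.235, 0.1902, 0.0903 and 0.0631 against 0.349, 1.499, 0.269 and 0.946, and Cenpa had 2.38, 2.19, 1.54 and 2.21 against 3.19, 5.27, 3.91 and 4.22. Their normalized values, with those of Nuf2, did not overlap between the genotypes. The exact permutation p of 0.0286 for each follows from the lack of overlap and adds nothing to it. Such a lack of overlap was found in 2.69% of all genes, and 1.54% of all genes were called higher by DESeq2. In TPM, Nuf2 overlapped, at 0.0965 in control mouse 10684 against 0.0762 in Ox1RΔSERT mouse 11243.

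Of 44 tested further replication genes, 4 (Dbf4, Pold1, Chaf1a and Cdk2, chosen after their values were seen) were higher at an unadjusted p under 0.05 and 0 were lower. This share is not above the 10.2% of all genes, and the median log2 fold change was 0.17. Cdc6 and Cdt1, which load the helicase, had log2 fold changes of 0.76 ± 0.44 and 0.67 ± 0.47. For Cdt1 the values were 0.785, 0.824, 0.429 and 0.925 against 0.415, 1.91, 0.786 and 1.604, high in mice 11601 and 11708. Gmnn, the inhibitor of CDT1, had 16.7, 8.78, 5.46 and 5.57 against 10.9, 8.17, 9.83 and 7.77 and a log2 fold change of 0.01 ± 0.35, and control mouse 10684 was highest. Cyclin E genes Ccne1 and Ccne2 had 0.07 ± 0.27 and 0.14 ± 0.28. E2f7, a repressor of E2F targets, had 1.07, 1.14, 0.881 and 1.26 against 1.27, 1.26, 1.71 and 1.65 without overlap, a log2 fold change of 0.43 ± 0.21 and an edgeR adjusted p of 0.352. In TPM, E2f7 overlapped, at 0.449 in control mouse 10684 against 0.254 in Ox1RΔSERT mouse 11243. E2f8 was too low for the edgeR test, at 0.0785, 0.285, 0.0452 and 0.0631 against 0.218, 0.769, 0.0225 and 1.05.

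Of 17 tested genes of G1 and of cell cycle inhibitors, 5 were higher at an unadjusted p under 0.05, where 10.2% of all genes were, and 0 were lower, with a median log2 fold change of 0.05. Beside Ccnd2 these were Cdk6, Cdkn2d, Rbl1 and E2f3, chosen after their values were seen, with log2 fold changes of 0.71, 0.45, 0.89 and 0.66. The D cyclins pair with CDK4 and CDK6 to pass signals into the cycle. Ccnd2 had 8.68, 11.2, 9.73 and 11.3 against 9.302, 22.3, 11.9 and 19.3 and a log2 fold change of 0.62 ± 0.27, whereas Ccnd1 and Ccnd3 had 0.20 ± 0.35 and 0.01 ± 0.07. Cdk4 had a log2 fold change of 0.21 ± 0.11. Cdk6 had 13.8, 11.8, 10.7 and 11.7 against 15.4, 23.98, 16.6 and 22.7 without overlap, with a DESeq2 adjusted p of 0.0246. Cdkn2d, the gene of the inhibitor p19, had 5.78, 4.502, 4.2 and 3.49 against 5.92, 6.06, 5.97 and 6.602, also without overlap, as in 2.69% of all genes. In TPM, Cdkn2d overlapped, at 4.69 in control mouse 10684 against 4.52 in Ox1RΔSERT mouse 11243. The inhibitors chosen by role had fold changes below or near 0. Cdkn1a, p21, had 166, 251, 232 and 255 against 228, 149.7, 170.4 and 136 and a log2 fold change of -0.40 ± 0.19 (edgeR adjusted p = 0.352). Cdkn2c, p18, had 53.4, 49.6, 44.8 and 32.8 against 38.5, 27.4, 43.04 and 27 and a log2 fold change of -0.41 ± 0.20. On the normalized scale both were lowest in mice 11601 and 11708. In TPM neither was. Cdkn1a had 101.7 and 90.1 TPM in these mice against 79.5 in control mouse 10684. Cdkn2c had 32.9 and 32.7 TPM against 29.1 in control mouse 11563. Cdkn1b and Cdkn1c had 0.05 ± 0.14 and -0.20 ± 0.19, and Cdkn2a stayed at or under the limit of detection in all 8 mice.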

How the data were processed

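Libraries were made from poly-A selected RNA of 8 mice with a stranded kit. The submitters' processing notes name STAR, Salmon 0.14.1, DESeq2 1.26.0 and GRCm38.p6. The strand setting used in counting is not given in the sources used here. What the authors deposited were, for every gene in every mouse, estimated counts, which are not normalized and need not be whole, and TPM values, which the authors normalized for transcript length and library size. Symbols came from GENCODE M21 (44118 of 44674 identifiers matched) and promoters from RefSeq.

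Estimated counts were rounded and compared between genotypes with edgeR 4.0.16 in R 4.3.3 (filterByExpr, TMM, glmQLFit and glmQLFTest, two-sided, no covariates) over 14489 genes, with Benjamini-Hochberg adjustment over all of them and a threshold of 0.05. Normalized values are TMM-scaled CPM. Single genes were also compared with an exact permutation test of the difference in means over 70 assignments of 4 mice against 4. Its smallest p is 0.0286, which every gene without overlap between the groups has. DESeq2 1.42.0, limma 3.58.1 (voom, and log2 TPM with pseudocounts of 1 and 0.1), other scalings, filters, a macrophage score as covariate and fits without single mice were alternatives. Scripts were tested on simulated data. Replicate mice are separate animals. Depth was 35852708 to 50063339 counts per mouse, and the limit of 3 counts covers counting error only. Mitochondrially encoded genes took 33.6% to 46.8% of counts.

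The 36 genes, the gene lists and the alternatives were chosen with earlier results of these data known. Each of the 36 is named, and other genes by role (transcription factors of the programme, licensing, cyclins, kinases, inhibitors, 5 macrophage genes), unless marked as chosen after their values were seen.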

Additional observations from a re-analysis of the deposited data

Results flagged for a closer look

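In groups of 4 mice, a single mouse lay far from the other 3 by Dixon's criterion in 4 of 78 groups examined, and chance alone flags about 1 in 20 groups. Control mouse 11253 had the highest normalized value for Kif11, 1.36 CPM against 0.628 to 0.745 CPM in the other controls. The same mouse was highest for Cdc20, at 1.20 CPM against 0.378 to 0.471 CPM, and lowest for Tyms, at 4.98 CPM against 5.99 to 6.12 CPM. Skeletal muscle genes were also high in this mouse. Ox1RΔSERT mouse 11243 had the highest ratio of mitosis to macrophage genes in its group, 79.4 CPM per 1000 macrophage CPM against 62.1 to 64.5 in the other 3. In TPM the ratio of this mouse was closer to the others, 40.5 against 33.7 to 38.1, and Dixon's criterion was not applied on that scale.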

How the results depend on the processing

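None of the 36 genes was called at an adjusted p under 0.05 in any of the 22 alternative fits, where the lowest adjusted p was 0.0671, nor by edgeR at 0.1. DESeq2's adjusted p was under 0.1 for Bub1b (0.0671), Mcm3 (0.0782), Top2a (0.0974) and E2f1 (0.0974). Of the fold changes of single genes, 724 of 785 kept their sign. Counts of genes higher at an unadjusted p under 0.05 are given here with the share of all genes in the same fit. edgeR gave 11 mitosis and 5 replication genes (10.2% of all genes). limma voom gave 1 and 2 (6.16%) and DESeq2 18 and 5 (7.56%). Library size scaling gave 20 and 5 (20.8%) and log2(TPM + 1) 8 and 3 (20.7%). Without mice 11253 and 11708 the counts were 8 and 1 (4.66%). They were 0 and 0 without mice 11601 and 11708 (1.66%) or with the macrophage covariate (0.946%). With that covariate 1 mitosis gene, Ube2c, was lower, where 2.19% of all genes were under 0.05 in either direction. The median log2 fold change of mitosis genes, 1.36, was 0.99 to 1.63 when single mice were left out, 0.39 with log2(TPM + 1), 0.0288 without mice 11601 and 11708 and -0.29 with the macrophage score as covariate. For replication genes the median of 0.62 was 0.41 to 0.78, -0.0499 without those mice and -0.15 with the covariate. The covariate is high in mice 11601 and 11708, both Ox1RΔSERT, so that it and the genotype overlap. With it the log2 fold changes that changed sign were Aurkb -0.80, Nusap1 -0.65, Ube2c -0.65, Ccna2 -0.60, Ccnb1 -0.58, Aurka -0.55, Kif23 -0.44, Mcm5 -0.41, Kif20a -0.40, Bub1 -0.39, Kif11 -0.36, Prc1 -0.32, Mcm2 -0.32, Mki67 -0.31, Tk1 -0.27, Plk1 -0.26, Mcm6 -0.23, Cdk1 -0.21, Tpx2 -0.20, Cenpe -0.19, Top2a -0.18, Ccnb2 -0.16, Ncapg -0.16, Mcm4 -0.14, Pcna -0.13, Ncapd2 -0.11, Cenpf -0.11, Cdc20 -0.0752, Birc5 -0.0510 and Tyms -0.0023. Without mice 11601 and 11708 they were Aurkb -0.48, Ccna2 -0.39, Ube2c -0.34, Kif20a -0.32, Nusap1 -0.31, Aurka -0.31, Mcm2 -0.26, Ccnb1 -0.24, Mcm5 -0.16, Kif11 -0.13, Kif23 -0.0918, Pcna -0.0700, Mcm6 -0.0676, Prc1 -0.0515, Mcm4 -0.0321, Tyms -0.0196 and Ncapd2 -0.0185. Kif20a, at 0.03, was -0.12 to 0.13 when single mice were left out and -0.0026 with no filter. With library size scaling, Mcm7 had 0.12 and Rrm1 0.0903. With log2(TPM + 1) Cenpf had -0.0445, Mcm7 0.13 and Rrm1 0.18, and with log2(TPM + 0.1) they had -0.20, 0.16 and 0.21. These 3 settings moved the median of all genes by 0.22, 0.23 and 0.32. The cause of these changes was not tested. Leaving out mice 11253 and 11708, in which muscle genes were high, was chosen after seeing the data and gave medians of 1.32 and 0.51, and Kif20a -0.0089. On the TPM scale the correlation of the macrophage sum with the replication sum over 6 mice was 0.533 and with the mitosis sum 0.961. At least 10 counts in every mouse left 19 of 24 mitosis and 11 of 12 replication genes. No paired analysis was possible because the labels do not pair any control mouse with an Ox1RΔSERT mouse. Depth limits the genes near 3 counts, such as Bub1 and Ncapg in some controls.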
